A study of Arabidopsis thaliana with 27 samples.

Results

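Rubisco fixes carbon dioxide in the chloroplast and is the entry point of the Calvin-Benson cycle. It is built from large subunits, encoded by rbcL in the chloroplast genome, and small subunits, encoded by the nuclear RBCS family. Rubisco activase, encoded by RCA, is an ATP-dependent chaperone that frees Rubisco active sites of inhibitory sugar phosphates, and it is known as a heat-labile step of photosynthesis in leaves. The mRNAs of the 4 RBCS copies and of RCA were followed by RNA-seq in whole Arabidopsis thaliana Col0 wild-type seedlings after a rise in temperature. These 5 genes were taken by their locus identifiers (AT1G67090 RBCS1A, AT5G38430 RBCS1B, AT5G38420 RBCS2B, AT5G38410 RBCS3B and AT2G39730 RCA) from the 33557 genes counted in all 27 libraries.

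Seedlings moved to 27 °C were set against seedlings kept at 17 °C, with 2 libraries for each temperature at 15 min, 1 h and 4 h and 1 unshifted library at 0 min. Seedlings moved to 37 °C were set against seedlings kept at 17 °C, and seedlings moved to 27 °C against seedlings kept at 22 °C, with 1 library for each temperature and time and 1 unshifted library at 0 min in each experiment. The labels give 10 days of growth in long days at 17 °C and place the moves early in the light period. The labels describe no separate growth conditions for the 22 °C seedlings and do not say whether libraries came from separate cultures, so p-values measure the spread between these libraries, which may be technical. Total counts per library ran from 6404149 to 30741125 in the 17 to 27 °C experiment, from 15297839 to 22482293 in the 17 to 37 °C experiment, and from 5790129 to 10694410 in the 22 to 27 °C experiment. HSP70-4, a heat-induced chaperone, rose over the 3 times in each move, by 4.68 (27 °C over 17 °C), 6.97 (37 °C over 17 °C) and 2.25 (27 °C over 22 °C) on the log2 scale. Light harvesting genes, which mark green tissue, and root marker genes were both detected in every library, as whole seedlings hold both, so a change in the share of green cells and a change in mRNA per cell cannot be told apart here.

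RBCS1A lies on chromosome 1 at chr1:25048158-25049424 in the TAIR10 coordinates of the deposited files. RBCS3B (chr5:15377173-15378416), RBCS2B (chr5:15380945-15382035) and RBCS1B (chr5:15384117-15385247) stand next to each other on chromosome 5. RCA lies at chr2:16570746-16573548. All 5 genes are on the minus strand. A gene on the other strand, AT2G39725, meets the 3′ end of RCA, and whether reads were counted by strand is not known here. The beginning of the coding sequence, which encodes the signal for import into the chloroplast, shows how far the copies can be told apart by short reads. The first coding exon is 171 bases long in each copy. It is printed from the RefSeq TAIR10.1 reference, minus strand, 5′ to 3′, from chr1:25049079-25049249 (RBCS1A), chr5:15384985-15385155 (RBCS1B), chr5:15381808-15381978 (RBCS2B) and chr5:15378136-15378306 (RBCS3B), with capitals at the bases that differ from RBCS1A.
RBCS1A: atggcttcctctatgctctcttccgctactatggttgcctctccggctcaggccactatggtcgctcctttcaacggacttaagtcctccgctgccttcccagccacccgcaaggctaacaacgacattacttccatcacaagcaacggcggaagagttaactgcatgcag
RBCS1B: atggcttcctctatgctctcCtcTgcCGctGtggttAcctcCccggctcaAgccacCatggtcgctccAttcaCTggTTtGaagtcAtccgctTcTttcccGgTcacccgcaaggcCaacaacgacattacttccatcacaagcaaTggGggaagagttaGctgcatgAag
RBCS2B: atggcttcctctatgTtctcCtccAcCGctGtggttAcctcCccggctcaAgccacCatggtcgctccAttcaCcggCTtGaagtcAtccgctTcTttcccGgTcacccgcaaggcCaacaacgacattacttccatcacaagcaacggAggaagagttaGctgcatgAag
RBCS3B: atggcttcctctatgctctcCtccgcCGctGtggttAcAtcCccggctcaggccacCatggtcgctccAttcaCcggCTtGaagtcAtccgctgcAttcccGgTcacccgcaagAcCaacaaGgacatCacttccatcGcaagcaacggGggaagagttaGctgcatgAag
The copies on chromosome 5 differed from RBCS1A at 25 (RBCS1B), 24 (RBCS2B) and 25 (RBCS3B) positions of this exon, and from each other at 7 to 12 positions. Over the whole coding sequence RBCS1A was 89.9 to 90.1% identical to the other copies, and these were 96.7 to 97.3% identical among themselves. No stretch of 100 coding bases, the length of a read, was shared exactly between RBCS1A or RBCS2B and another copy. RBCS1B and RBCS3B each had 134 of 447 such stretches (30%) in common with another copy. With 2 mismatches allowed, the share was 75.4% for RBCS1B, 79.2% for RBCS2B, 67.1% for RBCS3B and 0% for RBCS1A. How the authors assigned reads that match more than 1 copy is not given in the sources used here, so values of single chromosome 5 copies are uncertain in a way that those of RBCS1A and RCA are not.

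The upstream elements are shown because they set out what the 5 promoters share and where RBCS1B and RCA depart from the others. RBCS promoters are a textbook case of light-driven genes that carry an I-box (GATAAG) next to a G-box (CACGTG). The stretches below lie on the minus strand of TAIR10.1 as given by RefSeq and are printed 5′ to 3′, with both motifs in capitals. They span chr1:25049503-25049532 (RBCS1A), chr5:15385305-15385334 (RBCS1B), chr5:15382189-15382217 (RBCS2B), chr5:15378518-15378546 (RBCS3B) and chr2:16573579-16573608 (RCA).
RBCS1A: GATAAGattcatggaattatcttcCACGTG
RBCS1B: caaaagaaaGATAAGATAAGggtgtcaaca
RBCS2B: GATAAGattatggagttttctgcCACGTG
RBCS3B: GATAAGataatggagttttctgcCACGTG
RCA: ataaacatattcCACGTGgaccaatcaaaa
Positions are counted upstream of the annotated transcript start nearest the start codon. The printed stretch begins 108 bases upstream in RBCS1A, 87 in RBCS1B, 146 in RBCS2B, 130 in RBCS3B and 89 in RCA. In RBCS1A, RBCS2B and RBCS3B a GATAAG stood at most 30 bases before a CACGTG on the gene's strand. That arrangement was found in 17 of 31345 upstream windows of 250 bases (0.0542%), these 3 included. The windows of RBCS1A, RBCS2B and RBCS3B each held at least 2 GATAAG over both strands, as did 1.08% of all windows, counted without overlaps. In RBCS1B 2 GATAAG overlap by their last and first base, which that count takes as 1. The RBCS1B window held no CACGTG. The RCA window held CACGTG, present in 6.1% of windows, and no GATAAG on either strand, present in 12.9%. Neither GAANNTTC nor TTCNNGAA, the core of the heat shock element, read on both strands, occurred in any of the 5 windows, against 16.5% of all windows. A letter match is a description and does not show binding.

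All 5 mRNAs were among the most abundant in the seedling in every library. RBCS1A was the gene with the highest or close to the highest TPM (the deposited transcript level, normalised for gene length and for library size), at 3300 to 7652 TPM with a median of 5131 and a median rank of 1 among all genes. RBCS3B ranged between 2347 and 5250 TPM (median 3434), RCA between 2182 and 4679 TPM (median 3130), RBCS2B between 1589 and 3545 TPM (median 2516) and RBCS1B between 1013 and 2922 TPM (median 1756). The order of the medians was thus RBCS1A, RBCS3B, RCA, RBCS2B and RBCS1B, with overlapping ranges for each pair of neighbours. Together the 4 small subunit mRNAs took 0.878 to 1.87% of all TPM. RBCS1A contributed 33.9 to 45.2% of the RBCS pool, RBCS3B 24.0 to 32.6%, RBCS2B 15.4 to 21.8% and RBCS1B 8.97 to 21.3%. In raw counts the RBCS1A share had a 95% exact Clopper-Pearson interval at most 0.778 percentage points wide in every library, which covers counting error only, so depth did not limit these values.

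The partner subunit, rbcL, read 41.8 to 109 TPM in the 17 to 37 °C experiment and 44.6 to 67.7 TPM in the 22 to 27 °C experiment, far below the nuclear genes. Chloroplast mRNAs mostly lack the poly(A) tails by which mRNA kits select, so an rbcL level cannot be set against an RBCS level. In the 17 to 27 °C experiment rbcL was higher in the library numbered 1 than in that numbered 2 at every time and temperature, and reached 1614 TPM at 27 °C and 1353 TPM at 17 °C in those numbered 1 at 1 h. Genes of the chloroplast genome took 6.45% and 5.43% of all counts in those libraries, against 0.214% and 0.252% in the libraries numbered 2 at that time. Leaving chloroplast and mitochondrial genes out changed no call for the 5 nuclear genes.

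After the move to 27 °C, no Rubisco or activase gene passed the test at any time. At 15 min RBCS1A read 4493 and 5289 TPM at 27 °C, against 3410 and 4467 TPM at 17 °C. RCA read 2954 and 3227 TPM at 27 °C, against 2256 and 2774 TPM at 17 °C. RBCS3B read 3106 and 3671 TPM at 27 °C, against 2347 and 3060 TPM at 17 °C. RBCS1B read 2276 and 1754 TPM at 27 °C, against 1627 and 1708 TPM at 17 °C. For these 4 genes both 27 °C libraries were above both 17 °C libraries, while RBCS2B overlapped. The share of all genes that separate in this way was not counted, and the members follow each other across libraries, so this is a description only. On the scale corrected for library composition (TMM), the log2 fold changes of the 5 genes at 15 min lay between 0.44 (RBCS2B) and 0.55 (RBCS3B), with SE between 0.33 (RCA) and 0.58 (RBCS1B). None of the 5 was called by edgeR's quasi-likelihood test at an adjusted p under 0.05 (0.218% of all genes were), none had an unadjusted p under 0.05, and DESeq2 called none.

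At 1 h RBCS1A read 4996 and 5590 TPM at 27 °C, against 5495 and 5131 TPM at 17 °C. RBCS1B read 2085 and 1313 TPM at 27 °C, against 2922 and 1679 TPM at 17 °C. RBCS2B read 2897 and 2996 TPM at 27 °C, against 2651 and 2571 TPM at 17 °C. RBCS2B was higher in both 27 °C libraries, and so was RBCS3B, while RBCS1A, RBCS1B and RCA overlapped. The share of all genes that separate was not counted here either. None of the 5 genes was called at 1 h by edgeR (0.842% of all genes were), at an unadjusted p under 0.05 or by DESeq2, and their log2 fold changes lay between -0.15 (RBCS1B) and 0.41 (RBCS2B).

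At 4 h the 27 °C duplicates stood far apart. RBCS1A read 3300 and 6027 TPM at 27 °C, against 6974 and 4907 TPM at 17 °C. RBCS1B read 1013 and 1535 TPM at 27 °C, against 2674 and 1221 TPM at 17 °C. RCA read 2182 and 3429 TPM at 27 °C, against 3745 and 2712 TPM at 17 °C. For each of these 3 genes the 27 °C library numbered 1 was the lowest of the 4 and the 17 °C library numbered 1 the highest. Their depths were 30741125 and 7550886 counts, and the part of depth in this was not tested. Log2 fold changes at 4 h lay between -0.76 ± 0.58 (SE) for RBCS1B and 0.02 ± 0.39 for RBCS3B. None was called by edgeR (0.0324% of all genes were), at an unadjusted p under 0.05 or by DESeq2.

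Over the 3 times together, with 6 libraries at each temperature, the log2 fold changes at 27 °C were 0.11 ± 0.25 (SE) for RBCS1A, -0.13 ± 0.35 for RBCS1B, 0.25 ± 0.22 for RBCS2B, 0.31 ± 0.22 for RBCS3B and 0.20 ± 0.21 for RCA. The 95% interval of RBCS1A ran from -0.43 to 0.65 and that of RCA from -0.26 to 0.67, so changes of that size in either direction were not resolved. None of the 5 was called by edgeR (1.51% of all genes were), at an unadjusted p under 0.05 or by DESeq2. Nor was any called with libraries of the same number paired, or when any single library was left out. Between libraries of the same time and number, RBCS1A, RBCS2B, RBCS3B and RCA were each higher at 27 °C in 5 of 6 pairs on the TMM scale, and RBCS1B in 3 of 6. For RBCS1A, RBCS2B, RBCS3B and RCA the pair that went the other way was the same, number 1 at 4 h. The share of all genes higher in as many pairs was not counted. The median log2 fold change of the 5 was 0.20, beside -0.01 for all genes tested. Of the related lists, 0 of 19 Calvin-Benson genes, 0 of 22 photorespiration genes and 0 of 20 light harvesting genes were called, with medians of 0.02, 0.04 and 0.21. Of 17 Rubisco assembly genes 1 rose, the chaperonin subunit gene CPN60B2 (1.36 ± 0.23, SE, adjusted p = 0.0189, edgeR).

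**Figure D1:**
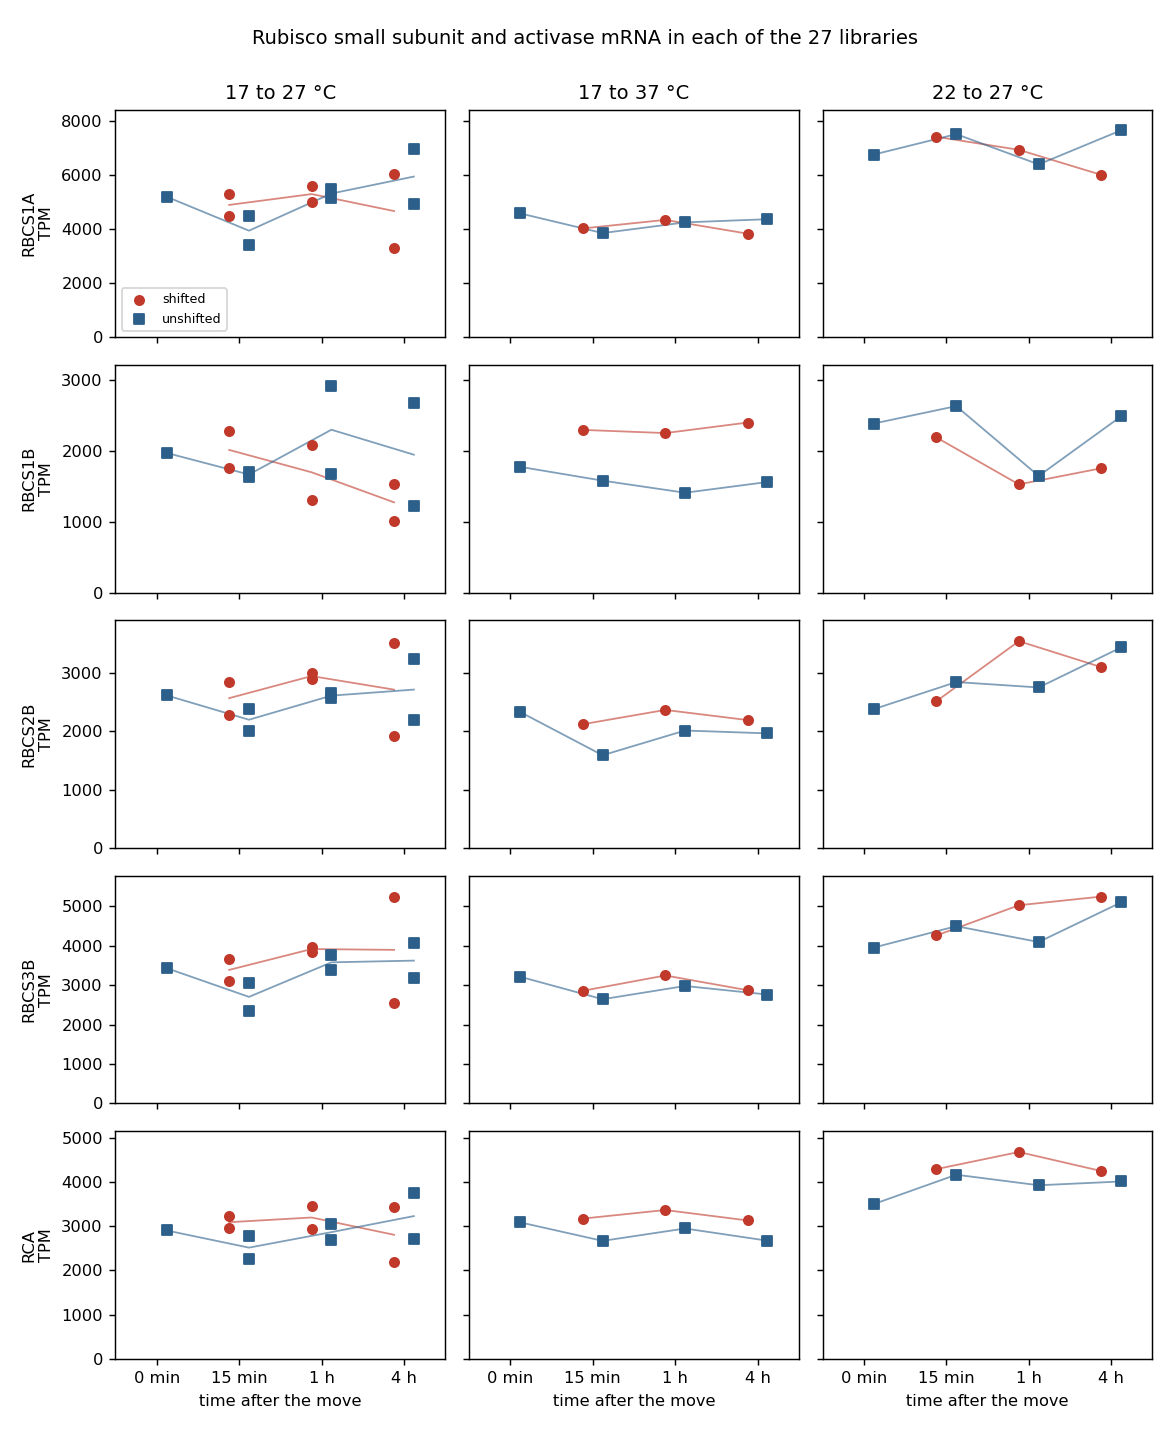
TPM (y axis, starting at 0) of each gene in each of the 27 libraries by time after the move (x axis), with shifted seedlings as red circles and unshifted seedlings as blue squares, and lines through the group means. RBCS1B at 37 °C (2253 to 2402 TPM) lies above all unshifted libraries of that experiment (1410 to 1776 TPM), while the duplicates of the 17 to 27 °C experiment spread widely at 4 h.

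At 37 °C RBCS1B had the largest change of the 5 genes. It read 2298, 2253 and 2402 TPM at 37 °C at 15 min, 1 h and 4 h, against 1581, 1410 and 1562 TPM at 17 °C. Every 37 °C library was above every 17 °C library of that experiment, the 0 min one (1776 TPM) included. How many of all genes separate in this way was not counted, so this is a description only. The 17 °C libraries of the 17 to 27 °C experiment ran from 1221 to 2922 TPM, across the 37 °C values. The ratio of TPM was 1.45, 1.60 and 1.54 at the 3 times. Over the 3 times the log2 fold change of RBCS1B on the TMM scale was 0.93 ± 0.10 (SE), with an adjusted p of 0.00739 in edgeR's quasi-likelihood test.

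RBCS1A, the main copy, read 4021, 4337 and 3827 TPM at 37 °C at the 3 times, against 3849, 4245 and 4363 TPM at 17 °C. Its values overlapped between temperatures. RBCS2B read 2121, 2366 and 2192 TPM at 37 °C, against 1589, 2013 and 1964 TPM at 17 °C, higher at each time but overlapping with the 0 min library at 2331 TPM. RBCS3B read 2858, 3247 and 2872 TPM at 37 °C, against 2644, 2980 and 2763 TPM at 17 °C. RCA read 3172, 3366 and 3130 TPM at 37 °C, against 2668, 2948 and 2672 TPM at 17 °C. RCA was higher at each time, by 1.19, 1.14 and 1.17 times. Each of its 37 °C libraries was above the 17 °C libraries of that experiment, the 0 min one at 3087 TPM included. For RCA too, this is a description with no count over all genes. In the 17 to 27 °C experiment the 17 °C libraries ran from 2256 to 3745 TPM for RCA.

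On the TMM scale, 4 of the 5 genes rose at 37 °C over the 3 times, where 9.91% of all genes rose and 21.2% were called in either direction. Beside RBCS1B these were RBCS2B (0.57 ± 0.09, SE, adjusted p = 0.0186, edgeR), RCA (0.54 ± 0.09, adjusted p = 0.02) and RBCS3B (0.40 ± 0.09, adjusted p = 0.039). RBCS1A, at 0.30 ± 0.09, did not pass (adjusted p = 0.0704, edgeR). The chromosome 5 copies summed into a single feature rose by 0.59 ± 0.09 (adjusted p = 0.0168, edgeR). The sum does not depend on how counted reads were split among the copies, but any reads left out for matching several copies stay missing. DESeq2 also called 4 of the 5 genes. In the fit over the 3 times each temperature had 1 library per time, so SE and p measure how alike the effect was across times. They do not measure the spread between duplicate libraries.

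These folds depend on the scale. TMM sets the middle of all genes at no change, and the median log2 TPM difference of genes with at least 1 TPM in both libraries was -0.25 at 15 min, -0.36 at 1 h and -0.35 at 4 h at 37 °C. Scaled to total counts instead, a choice added after seeing the data, the median of all genes moved by -0.36 and 1 of the 5 was called, where 30.5% of all genes were called, 5.07% higher and 25.5% lower. That gene was RBCS1B, at 0.57 ± 0.08 (SE, adjusted p = 0.0106, edgeR). RBCS2B was then at 0.22 ± 0.09, RCA at 0.19 ± 0.07 and RBCS3B at 0.05 ± 0.07, and RBCS1A turned to -0.05 ± 0.09. Of these results only that of RBCS1B was called on both scales. This fit has 2 residual degrees of freedom, and without the 1 h libraries, on the TMM scale, 0 of 5 were called, where 2.14% of all genes were. The log2 fold changes were then 0.88 for RBCS1B (adjusted p = 0.0876, edgeR), 0.57 for RBCS2B, 0.53 for RCA, 0.37 for RBCS3B and 0.26 for RBCS1A. RBCS3B also lost its call without the 15 min libraries, at 0.42 (adjusted p = 0.0714, edgeR), or without the 4 h libraries, at 0.40 (adjusted p = 0.0719, edgeR).

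At single times no member was called by edgeR at 37 °C, at an unadjusted p under 0.05 or by DESeq2, where 2.46% (15 min), 4.83% (1 h) and 15.3% (4 h) of all genes were. In those fits the spread is taken from the duplicated groups of the 17 to 27 °C experiment and assumed to hold for the lone libraries. RBCS1B was at 0.78 ± 0.81 (SE), 1.04 ± 0.81 and 0.96 ± 0.81 at the 3 times, and RCA at 0.50 ± 0.47, 0.57 ± 0.47 and 0.55 ± 0.47.

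The large subunit mRNA, rbcL, read 97.4, 96.5 and 81.5 TPM at 37 °C, against 55.5, 41.8 and 78.6 TPM at 17 °C, while the 0 min library read 109 TPM. Its log2 fold change over the 3 times was 1.03 ± 0.22 (SE, adjusted p = 0.0341, edgeR), and its call was lost without the 15 min (1.00) or the 1 h libraries (0.77) and on the total count scale (0.68). Genes of the chloroplast genome as a whole took 0.581, 0.492 and 0.675% of counts at 37 °C, against 0.372, 0.336 and 0.506% at 17 °C, and the part of this in the rbcL value was not tested.

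**Figure D2:**
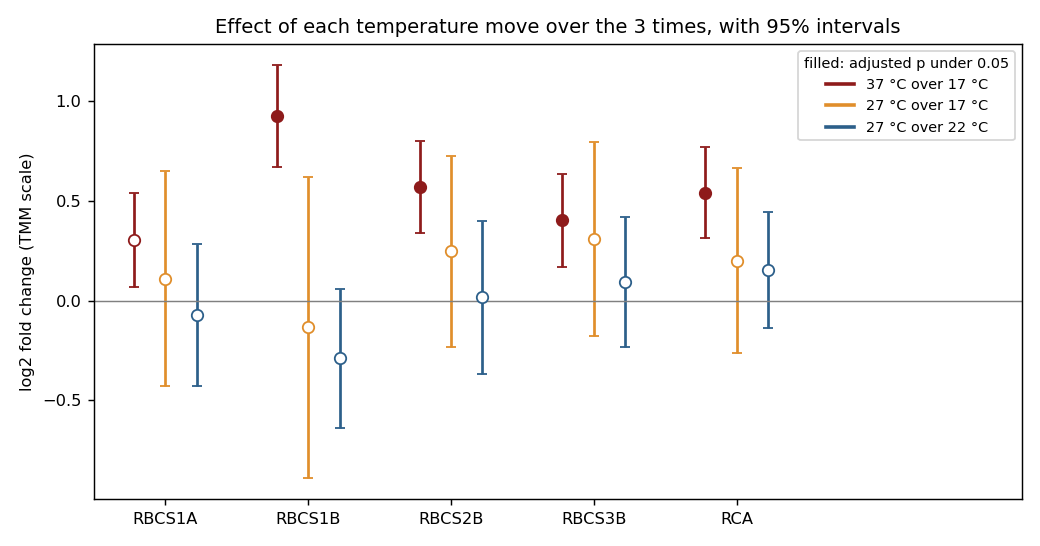
Log2 fold change on the TMM scale (y axis) of each gene over the 3 times for the moves to 37 °C from 17 °C, to 27 °C from 17 °C and to 27 °C from 22 °C; points are estimates, bars 95% intervals from edgeR, and filled points passed an adjusted p under 0.05. Filled points occur only for 37 °C, led by RBCS1B at 0.93.

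The 22 to 27 °C experiment gave no called change of the 5 genes. RBCS1A read 7412, 6930 and 6003 TPM at 27 °C at the 3 times, against 7511, 6391 and 7652 TPM at 22 °C. RBCS1B read 2191, 1528 and 1756 TPM at 27 °C, against 2634, 1647 and 2490 TPM at 22 °C, and was the only one of the 5 genes lower at each of the 3 times. RCA read 4292, 4679 and 4248 TPM at 27 °C, against 4165, 3926 and 4012 TPM at 22 °C, and was the only one higher at each. How many of all genes kept the same direction at each time was not counted. RBCS2B read 2516, 3545 and 3099 TPM at 27 °C, against 2844, 2751 and 3437 TPM at 22 °C. RBCS3B read 4263, 5030 and 5250 TPM at 27 °C, against 4498, 4097 and 5102 TPM at 22 °C. Over the 3 times the log2 fold changes ran from -0.29 ± 0.15 (SE) for RBCS1B to 0.15 ± 0.13 for RCA, and on total counts RBCS2B turned to -0.02 in place of 0.02. None of the 5 was called by edgeR (0.310% of all genes were), at an unadjusted p under 0.05 or by DESeq2.

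Set side by side, unshifted RBCS1A was at 6391 to 7652 TPM at 22 °C and 3410 to 6974 TPM at 17 °C over both 17 °C experiments, and unshifted RCA at 3501 to 4165 TPM at 22 °C and 2256 to 3745 TPM at 17 °C. The 22 °C libraries form an experiment of their own, so temperature and experiment cannot be told apart and no test was made.

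The difference between the effect at 37 °C and the effect at 27 °C from 17 °C was tested directly over 18 libraries. None of the 5 genes was called by edgeR (15.8% of all genes were), at an unadjusted p under 0.05 or by DESeq2. RBCS1B had the largest difference, 1.075 ± 0.54 (SE, adjusted p = 0.196, edgeR), with a 95% interval from -0.09 to 2.24. That of RCA was 0.35 ± 0.33 and that of RBCS1A 0.21 ± 0.38; on total counts the RBCS1A difference was -0.10 and that of RBCS3B -0.20, in place of 0.11.

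A comparison added after seeing the data set the effect at 37 °C against the effect of 22 to 27 °C over 12 libraries. It was chosen from the RBCS1B values in these libraries, so its p for RBCS1B is a description and not an error rate. RBCS1B was the 1 gene of 5 called, higher by 1.199 ± 0.18 on the log2 scale (SE, adjusted p = 0.0134, edgeR), where 2.50% of all genes were called higher and 5.82% in either direction. On total counts the RBCS1B difference was 0.90 ± 0.17 (adjusted p = 0.0171, edgeR), and that of RBCS3B turned to -0.01, in place of 0.29. Without the 1 h libraries the RBCS1B difference was 1.26 with an adjusted p of 0.184 in edgeR.

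The make-up of the RBCS pool at 37 °C differed from that at 17 °C in the same direction at each time, without reaching significance. At 37 °C RBCS1B made up 20.3, 18.5 and 21.3% of RBCS TPM at 15 min, 1 h and 4 h, against 16.4, 13.2 and 14.7% at 17 °C. RBCS1A made up 35.6, 35.5 and 33.9% at 37 °C, against 39.8, 39.9 and 41.0% at 17 °C. In every duplicated group of the 17 to 27 °C experiment the RBCS1B share was higher in the library numbered 1. At 17 °C and 1 h it was 19.68% in number 1 and 13.15% in number 2. The libraries numbered 1 also had the higher chloroplast share of counts in every such group. The part of such library differences in the 37 °C shares was not tested. Each library's share is a ratio within that library and does not depend on the scaling between libraries. The mean RBCS1A share was 35.0% ± 0.97 at 37 °C and 40.2% ± 0.64 at 17 °C (SD, n = 3 each), a difference of -5.22 points. A two-sided exact permutation test within times gave p = 0.25, the smallest p that 3 pairs allow, and 0.519 after Benjamini-Hochberg adjustment over 6 ratio tests.

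At 27 °C from 17 °C the mean RBCS1A share was 37.8% ± 1.54 at 27 °C and 39.3% ± 2.47 at 17 °C (SD, n = 6 each), with an exact permutation p of 0.259 (adjusted 0.519). At 4 h it was 37.3% at 27 °C and 41.9% at 17 °C, and the duplicates did not overlap. RBCS3B then made up 30.6% of the pool at 27 °C and 25.8% at 17 °C, also without overlap, and in the 22 to 27 °C experiment 32.6% at 27 °C and 27.3% at 22 °C at 4 h. RBCS1B made up 11.5% at 27 °C and 15.8% at 17 °C at 4 h in the libraries numbered 1, and 9.41% at 27 °C and 10.6% at 17 °C in those numbered 2. At each of the 3 times the RBCS3B share was higher at 27 °C than at 22 °C, and lower at 37 °C than at 17 °C. Over the 6 pairs that share a time and a number, the RBCS1B share was lower at 27 °C in 5, and the RBCS1A share was lower in 3. In the same pairs the RBCS2B share was higher in 5 and the RBCS3B share in 6, described with no test. With labels exchanged within these pairs, an alternative added after seeing the data, the exact permutation p of the RBCS1A share was 0.312. In the 22 to 27 °C experiment the mean RBCS1A share was 41.1% ± 4.00 at 27 °C and 42.3% ± 1.14 at 22 °C (SD, n = 3 each, exact permutation p = 0.75, adjusted 0.75).

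**Figure D3:**
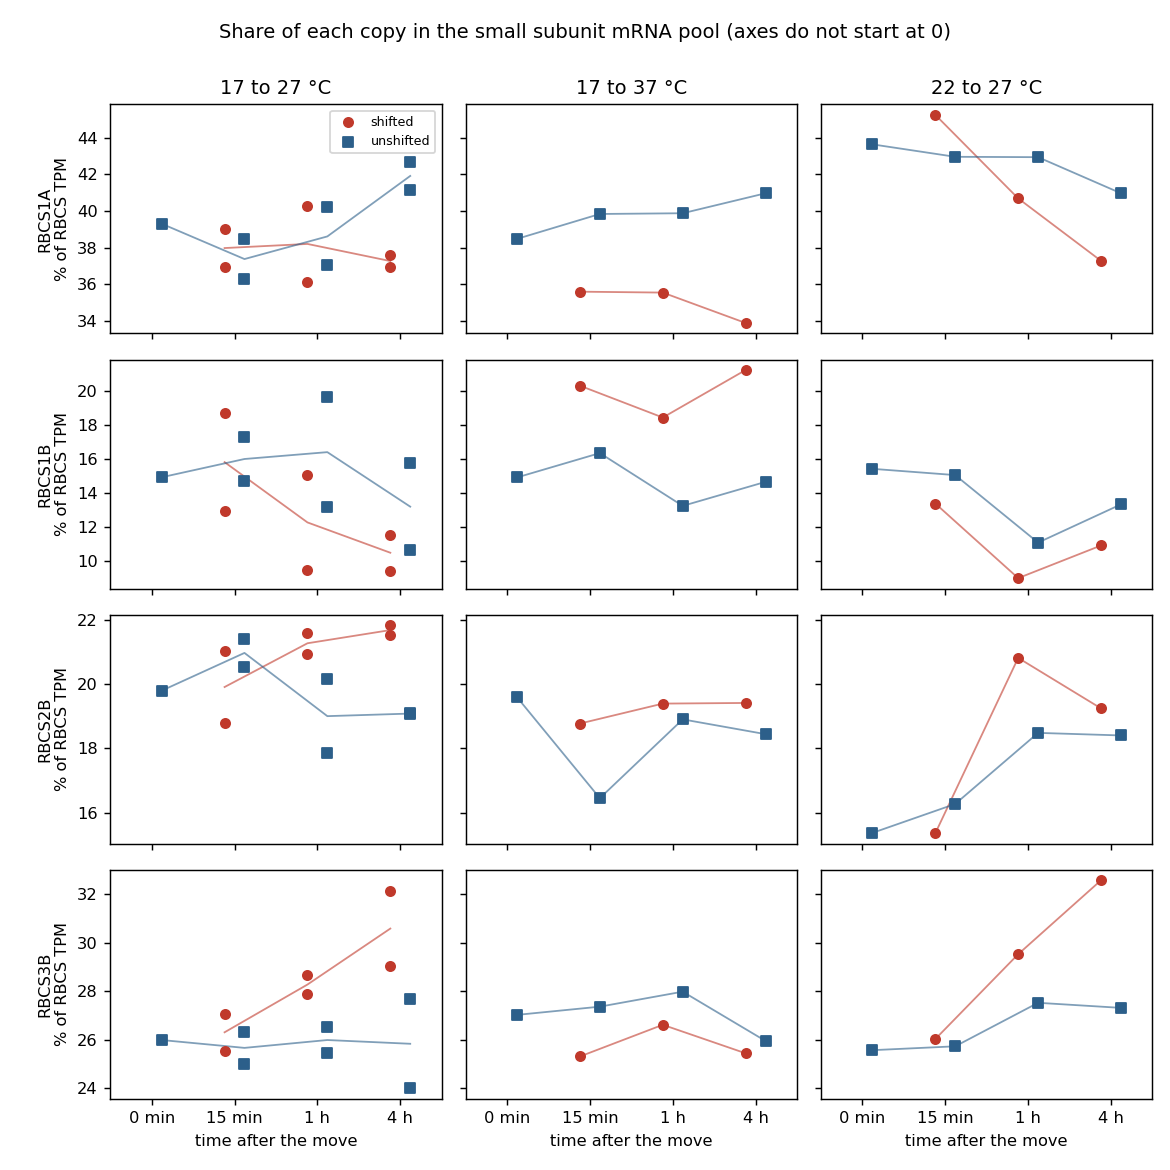
Share of each RBCS copy in the summed RBCS TPM of its library, in percent (y axes, which do not start at 0), by time after the move (x axis); red circles are shifted and blue squares unshifted libraries, with lines through group means. At 37 °C RBCS1B lies at 18.5 to 21.3% and RBCS1A at 33.9 to 35.6%, each outside the range of the unshifted libraries of that experiment. The unshifted libraries of the 17 to 27 °C experiment lie at 10.6 to 19.7% for RBCS1B, which overlaps, and at 36.3 to 42.7% for RBCS1A.

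The balance of activase to small subunit mRNA did not pass a test in any move. The log2 ratio of RCA to summed RBCS TPM was -1.85 ± 0.01 at 37 °C and -1.90 ± 0.08 at 17 °C (SD, n = 3 each, exact permutation p = 0.5, adjusted 0.644). At 27 °C from 17 °C it was -2.10 ± 0.11 at 27 °C and -2.15 ± 0.16 at 17 °C (SD, n = 6 each, exact permutation p = 0.537, adjusted 0.644). It was -1.91 ± 0.04 at 27 °C and -2.07 ± 0.15 at 22 °C (SD, n = 3 each), higher at 27 °C at each of the 3 times. The exact permutation p of that difference was 0.25, again the smallest p possible, and 0.519 after adjustment.

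In unshifted seedlings, no change of the 5 mRNAs with time passed the test. None was called by edgeR at 15 min (1.74% of all genes were), 1 h (4.60%) or 4 h (23.0%) against 0 min, at an unadjusted p under 0.05 or by DESeq2. At 4 h their log2 fold changes were between 0.06 ± 0.36 (SE) for RBCS1B and 0.25 ± 0.23 for RBCS1A. Light harvesting genes at that time rose in 15 of 20 cases and fell in 1, with a median of 0.61, beside 0.18 for the 5 Rubisco and activase genes and -0.02 for all genes.

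Related genes of carbon fixation gave the setting for the 37 °C result. Of 19 Calvin-Benson genes tested 9 rose and none was called lower on the TMM scale (median 0.39, beside -0.0015 for all genes), where 9.91% of all genes rose and 11.3% fell. The log2 fold changes of the 19 ran from -1.36, not called by edgeR, to 0.56, and DESeq2 called 1 of them lower. Among the 9 were GAPA1 (0.56 ± 0.11, SE), a subunit of the plastid glyceraldehyde-3-phosphate dehydrogenase, and PGK2 (0.53 ± 0.12), a phosphoglycerate kinase. Of 22 photorespiration genes 8 rose and none fell (median 0.35), led by CAT2, a peroxisomal catalase (0.96 ± 0.20), and GGT1, a glutamate:glyoxylate aminotransferase (0.72 ± 0.09). Of 17 Rubisco assembly genes 4 rose and none fell (median 0.35). The first of these were CPN60B2 (2.54 ± 0.15) and CPN60A1 (0.88 ± 0.10), subunits of the chloroplast chaperonin that folds Rubisco large subunits, followed by CBBY (0.49 ± 0.12), which degrades an inhibitor of Rubisco, and the assembly factor RAF2 (0.47 ± 0.10). Of 20 light harvesting genes 1 rose, beside the 9.91% of all genes, and this was LHCB4.3 (0.67 ± 0.17; list median 0.18).

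These counts move with the scale and with each time left out. On total counts, where 5.07% of all genes rose and 25.5% fell, 0 of 19 Calvin-Benson genes rose and 2 fell (median 0.04), 1 of 22 photorespiration genes rose and 2 fell (median -0.01), and 2 of 17 assembly genes rose and 2 fell (median -0.01). The 5 Rubisco and activase genes had a median of 0.19 there, beside -0.36 for all genes and -0.17 for light harvesting genes. On the TMM scale without the 15 min libraries 3 Calvin-Benson, 3 photorespiration and 3 assembly genes rose and 1 Calvin-Benson gene fell. In that setting 14.8% of all genes were called in either direction. Without the 1 h libraries 0, 0 and 1 rose, where 2.14% of all genes were called, and the list medians were 0.38, 0.36 and 0.35. Without the 4 h libraries 2, 3 and 2 rose, where 3735 of 20784 genes were called in either direction.

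Among 10 regulators of photosynthesis genes on the TMM scale, HY5, which binds G-boxes (1.26 ± 0.29, SE), and the GATA factor GNC (1.41 ± 0.32) rose at 37 °C, and CIL fell (-1.07 ± 0.25) (list median 0.19), beside 9.91% of all genes that rose and 11.3% that fell. On total counts 1 of the 10 rose and 2 fell, where 5.07% of all genes rose and 25.5% fell. Without the 1 h libraries none of the 10 was called (list median 0.30), where 2.14% of all genes were. Of 12 root markers tested 6 fell and none rose at 37 °C (median -0.91), and on total counts 9 fell (median -1.26). Their summed level over 13 genes was 196 to 269 TPM at 37 °C, against 384 to 410 TPM at 17 °C at the same times, and only ESB1 was at 0, in the 1 h and 4 h libraries at 37 °C. The summed light harvesting level was 30120, 31610 and 28760 TPM at 37 °C, against 28660, 33000 and 40260 TPM at 17 °C, with no gene at 0. The part of tissue make-up in the RBCS and RCA values was not tested.

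**Figure D4:**
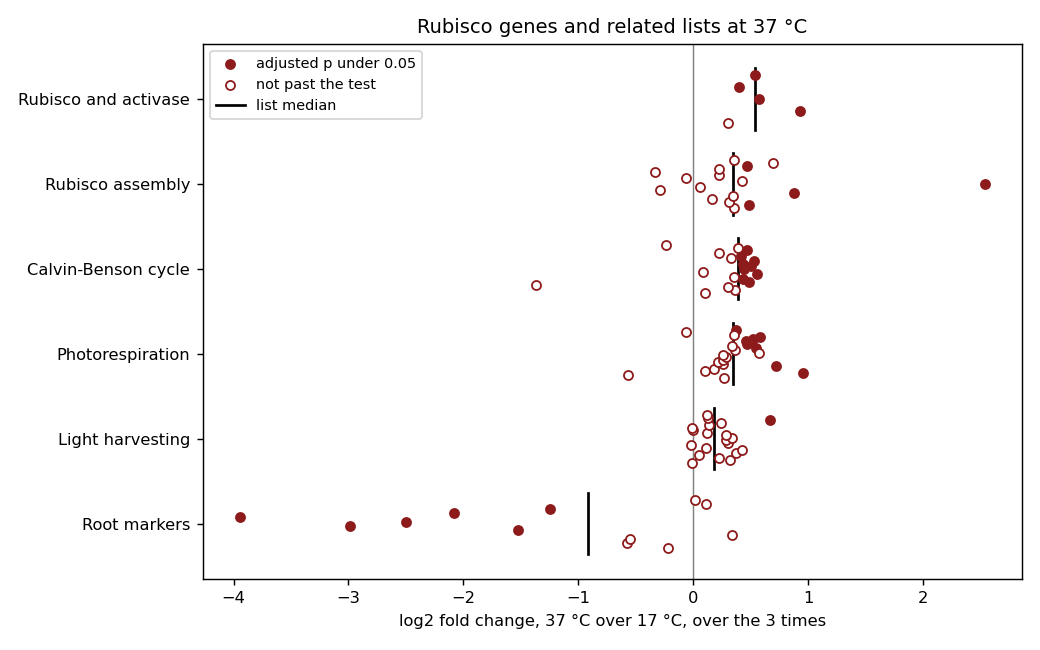
Log2 fold change at 37 °C over 17 °C on the TMM scale (x axis) of each tested gene of 6 lists (rows), with filled points past an adjusted p under 0.05 in edgeR and black bars at list medians. The Rubisco and activase genes lie between 0.30 and 0.93, and the root markers reach down to -3.94.

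Across the 27 libraries the members followed each other to different degrees. Pearson's r of log2 CPM, a count relative to the TMM-scaled library size, was 0.95 between RBCS1A and RBCS3B and 0.95 between RBCS2B and RBCS3B. RCA was at 0.88 with RBCS1A and 0.89 with RBCS3B. RBCS1B was the least alike, at 0.58 to 0.69 with the other 4. These are descriptions over libraries that share experiments, depth and, for the chromosome 5 copies, sequence.

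Among 6707 well expressed genes and leaving out the 5 members, the 5 most like RBCS1A over the 27 libraries all encode parts of the photosynthetic light reactions. They were CAB1 (r = 0.948), a light harvesting protein, PSBX (0.932), a photosystem II subunit, the plastocyanin gene DRT112 (0.922), NPQ4 (0.919), which encodes the PsbS protein of photoprotection, and PSAK (0.901), a photosystem I subunit. The 5 most like RCA were PSBY (0.935), DRT112 (0.921), PSAH-1 (0.910), PSBO1 (0.905) and GOX2 (0.893), the last a photorespiratory glycolate oxidase and the others genes of the light reactions.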

How the data were processed

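RNA-seq libraries of whole seedlings (27 libraries in 21 groups, 6 groups with 2 libraries and 15 with 1) were used as deposited. The submitters' processing notes name TopHat, Trimmomatic, Picard, FastQC and the TAIR10 build. Versions, the counting program and its use of strand were not given in the sources used here. Stranded and unstranded kits and more than a single sequencing centre are named in the labels, without saying for which library. Per the file headers, the authors deposited a raw count per gene. The authors also deposited FPKM values, normalised for gene length and library size, and TPM values that equal the FPKM values rescaled to a fixed sum (largest difference 5.1e-11).

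Counts were filtered with filterByExpr, scaled by TMM and tested with the two-sided quasi-likelihood F test of edgeR 4.0.16 (robust) in R 4.3.3, with Benjamini-Hochberg adjustment over all genes tested and a threshold of 0.05. All 5 genes passed the filter in each comparison. Each SE was taken from the fold change and its F statistic, and intervals are 95%. Fits over all 3 times held time as a factor (8 residual degrees of freedom for 27 °C from 17 °C, 2 for each other move). In those with 2, the spread comes from differences between the 3 times, as there were no duplicates. Single times used group means (6 degrees of freedom), the difference between 37 °C and 27 °C from 17 °C used 10, that between 37 °C and 22 to 27 °C used 4, and unshifted times with a term for each experiment used 9. DESeq2 1.42.0 was an alternative. Ratios within a library were compared by exact permutation within times. Within a time, libraries that share a replicate number deviated together from their group means (r = 0.448 to 0.572 over 3 pairs). Between times r was -0.0764 to 0.409 over 12 pairs. The replicate numbers of the labels were therefore used to pair libraries within a time, as an alternative only. The main fits at 27 °C left this pairing out. The fits were checked on simulated data.

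Named genes were the 5 members, rbcL and up to 4 genes per list and comparison with the largest log2 fold change among those past the test. Genes of similar pattern had a mean log2 CPM of at least 5 (prior count 2). The members and lists were chosen with earlier results of these data known. Sequences and motif counts came from RefSeq TAIR10.1 (Biopython 1.88); gene coordinates are those of the files, written from base 1.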

Additional observations from a re-analysis of the deposited data

Results flagged for a closer look

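RBCS1B was higher in each of the 3 libraries at 37 °C than in the 17 °C library of the same time, with a log2 fold change over the 3 times of 0.93. In the 22 to 27 °C experiment it was lower in each of the 3 libraries at 27 °C than in the 22 °C library of the same time, with a log2 fold change of -0.29 that did not pass the test (adjusted p = 0.383, edgeR). How many of all genes show such opposite directions was not counted. The opposite signs were noticed in the data, and the difference was then tested on the same 12 libraries with a term for each experiment and time. Its p for RBCS1B is therefore a description and not an error rate. The effect at 37 °C minus the effect of 22 to 27 °C was 1.199 ± 0.18 (SE) for RBCS1B, with an adjusted p of 0.0134 in edgeR, and 1 of the 5 genes was called where 5.82% of all genes were. On total counts it was 0.90 ± 0.17 (adjusted p = 0.0171, edgeR), and over its alternatives the adjusted p ran from 6.14e-06 to 0.184. The highest of these came without the 1 h libraries. The experiments also differ in starting temperature and in the size of the move, which cannot be told apart here. RBCS2B (0.54 ± 0.20) and RCA (0.37 ± 0.14) had unadjusted p of 0.0288 and 0.0339 and did not pass after adjustment (0.14 and 0.151, edgeR). The chromosome 5 copies summed gave 0.57 ± 0.17 (adjusted p = 0.0913, edgeR), and the part of read assignment among near-identical copies in the RBCS1B value was not tested. No group had more than 2 libraries, so no library could be set against its group as an outlier.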

How the results depend on the processing

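Of 563 values of the 5 genes under alternatives, 553 kept their side of the threshold, 10 lost a call and no called value changed sign. The 10 were RBCS2B, RBCS3B and RCA at 37 °C on total counts, RBCS3B at 37 °C without the 15 min or 4 h libraries, RBCS1B, RBCS2B, RBCS3B and RCA at 37 °C without the 1 h libraries, and the RBCS1B difference of 37 °C and 22 to 27 °C without the 1 h libraries. Members called at 37 °C over the 3 times numbered 4, between 0 and 3 when a time was left out and 1 on total counts. Members called in the difference of 37 °C and 22 to 27 °C numbered 1, between 0 and 1 when a time was left out. The cause was not tested.

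Counts of all genes called moved more. Over the 3 times at 27 °C, 315 genes were called. DESeq2 called 1180, the replicate block 487 and the replicate block within each time 551. Leaving out libraries gave 20 to 578 (33 without number 1 and 20 without number 2 at all times, 65 to 578 for a single library), leaving out both 1 h libraries numbered 1 gave 74, and leaving out the 15 min, 1 h or 4 h libraries gave 189, 3 and 93. At 15 min, 1 h and 4 h, 47, 182 and 7 genes were called; DESeq2 called 157, 795 and 353, and the replicate block within each time 193, 1648 and 546. The replicate block over all times called 449 at 1 h and 17 at 4 h, and no filter on low counts called 20 at 4 h. Leaving out a library gave 1 to 50 at 15 min, 0 to 1317 at 1 h, 0 to 1 at 4 h. The blocks changed no call of the 5 genes.

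At 37 °C over the 3 times 4476 genes were called and 445 to 3735 when a time was left out; total counts split the calls into 1068 higher and 5370 lower, in place of 2089 and 2387. For 22 to 27 °C, 59 were called, 349 by DESeq2, 225 with no filter and 0 to 405 without a time. For the difference of 37 °C and 27 °C, 3447 were called, 952 to 2175 without a time. For the added difference, 1222 were called, 1853 by DESeq2, 2530 on total counts and 9 to 1179 without a time. For unshifted 15 min, 1 h and 4 h, 367, 967 and 4829 were called; DESeq2 called 613 and 1709 at 15 min and 1 h, and leaving out an experiment gave 154 to 203 at 15 min, 217 to 466 at 1 h, 2382 to 2666 at 4 h. No ratio result passed its test under any alternative; with the replicate block within each time, added after seeing the data, the differences of 27 °C and 17 °C were -1.48 points for the RBCS1A share (exact permutation p = 0.312) and 0.05 for RCA to RBCS (exact permutation p = 0.344), and 0.0312 is the smallest p that 6 pairs allow; the RBCS1A share difference of 22 to 27 °C was -1.22 points, 0.02 without the 4 h libraries, and the RCA to RBCS difference of 27 °C and 17 °C was 0.05, -0.01 without the 17 °C 1 h library numbered 1. Each of the 5 genes had at least 5729 counts in every library, so counting error is small beside the spread between libraries, and the small number of libraries limits the precision.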
